A study of Homo sapiens with 6 samples.

Results

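The genes described here encode 10 core and accessory subunits of the SWI/SNF complexes, the ATP-driven chromatin remodellers also called BAF complexes: SMARCB1, SMARCC1, SMARCC2, SMARCE1, ACTL6A, DPF2, SS18, BCL7B, BCL7C and BRD9. They were taken by symbol from a list of subunits, and all 10 were found among the 23245 rows kept. RNA-seq libraries came from untreated cultures of L3.6pl, an established cell line of human pancreatic cancer kept in a serum-containing medium. The labels give 3 parental samples with genotype WT and 3 samples titled ARID1Ako with genotype ARID1A-deficient, called parental and ARID1A ko libraries here. How ARID1A was disrupted, and whether the ARID1A ko samples came from 1 clone or several, was not stated in the sources used here, so p-values measure the spread between these samples, which may be technical. No sample restores ARID1A, and the effect of its loss cannot be told apart from other differences between the cells.

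SWI/SNF complexes use the energy of ATP to slide or evict nucleosomes, which opens enhancers and promoters to transcription factors. Their parts are shared and swapped, and not every form holds every part. In the form called canonical BAF, marked by ARID1A or ARID1B, a SMARCC dimer, SMARCB1, SMARCE1 and a SMARCD protein form the base. A SMARCA4 or SMARCA2 motor joins it with ACTL6A, BCL7 and SS18 proteins. A form with ARID2 and PBRM1 is called PBAF, and the non-canonical form holds BRD9 and GLTSCR1 and lacks ARID1 proteins. ARID1A is often mutated in pancreatic cancer.

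Values are FPKM, fragments scaled to transcript length and library, so levels can be compared between genes per length. ARID1A, the gene that the labels say is deficient, stood at 11.8, 6.76 and 9.42 FPKM in parental libraries 1, 2 and 3, and at 3.55, 3.28 and 3.61 FPKM in ARID1A ko libraries 1, 2 and 3. The groups did not overlap (log2 fold change -1.18, SE 0.18, limma adjusted p = 0.00610), which matches the labels, although transcript remained. Epithelial and ductal markers summed to 6286 to 9831 FPKM in parental and 4527 to 5723 FPKM in ARID1A ko libraries. Of the 6, 0 were called, beside 15.9% of all genes tested, and 5 had groups without overlap, beside 35.3%. A limma unadjusted p under 0.05 was found for 4, all lower in ARID1A ko. Over all 12826 genes tested it was found for 2010 lower and 1771 higher. The count depended on the setting. With quantile normalization 5 of 6 were called lower, beside 19.5% of all genes called in either direction. With each library's slope on transcript length as a covariate 6 of 6 were called lower, beside 31.8% of all genes. Without parental library 2 the count was 3 of 6, also beside 31.8%. The part of this shift in the values of the subunits was not tested. Fibroblast markers summed to at most 0.336 FPKM, with DCN and LUM at 0 in every library. Endothelial markers summed to 8.45 to 10.0 and 8.66 to 9.23 FPKM, and leukocyte markers to 8.51 to 10.1 and 6.12 to 7.84 FPKM. Most of the endothelial sum lay in CDH5, at 6.22 to 8.09 FPKM, and PECAM1, with VWF, KDR and TEK at 0.0394 FPKM or less. CD68 made up most of the leukocyte sum, with PTPRC, CD3E, CD14 and CD79A at 0.339 FPKM or less. In each list 1 marker was called lower, PECAM1 of 2 tested and CD68 of 1 tested, beside 15.9% of all genes. With 1 library left out, PECAM1 stayed called only without parental library 2. CD68 stayed called only without parental library 2 or ARID1A ko library 2, and was not called with quantile normalization. Total fragment numbers are unknown. From the spacing of the lowest values, depth relative to parental library 1 was between 0.732 and 1.27 over the libraries, if values were scaled to the library's total. Parental library 2 stood apart: its log2 values fell most steeply with log2 transcript length, with a slope of -0.42 against -0.31 in parental library 1, and leaving it out moved the number of called genes from 2043 to 4079.

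Promoter sequence upstream of the annotated start was at hand for 7 of the 10 members, from RefSeq on build GRCh38.p14. SMARCC1, SMARCC2 and ACTL6A had no entry. The table gives 1 start per gene, which need not be the start used in these cells. The last 150 bases before the start are shown for the members with the highest and lowest levels, SMARCB1 and SS18, for the paralogs BCL7B and BCL7C, and for DPF2, in whose promoter the NRF1 motif was found. They lie at chr22:23786816-23786965 on the plus strand, chr18:26091220-26091369 on the minus strand, chr7:73557237-73557386 on the minus strand, chr16:30894078-30894227 on the minus strand and chr11:65333702-65333851 on the plus strand. Capitals mark matches, on either strand, to the GC box GGGCGG, the CCAAT box CCAAT and the NRF1 motif CGCANGCG.
SMARCB1: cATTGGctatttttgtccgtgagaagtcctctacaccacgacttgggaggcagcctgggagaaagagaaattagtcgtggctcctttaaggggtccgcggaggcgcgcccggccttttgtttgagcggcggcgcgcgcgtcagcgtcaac
SS18: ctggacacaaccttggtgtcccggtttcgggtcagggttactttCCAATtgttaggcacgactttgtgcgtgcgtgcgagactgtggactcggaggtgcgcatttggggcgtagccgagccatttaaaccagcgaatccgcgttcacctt
BCL7B: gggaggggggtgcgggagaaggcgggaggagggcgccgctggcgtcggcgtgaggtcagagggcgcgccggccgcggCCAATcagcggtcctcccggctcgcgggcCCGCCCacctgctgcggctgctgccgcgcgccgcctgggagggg
BCL7C: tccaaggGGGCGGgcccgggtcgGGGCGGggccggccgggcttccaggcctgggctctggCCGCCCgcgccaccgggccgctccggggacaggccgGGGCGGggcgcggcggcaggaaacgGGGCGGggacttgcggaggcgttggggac
DPF2: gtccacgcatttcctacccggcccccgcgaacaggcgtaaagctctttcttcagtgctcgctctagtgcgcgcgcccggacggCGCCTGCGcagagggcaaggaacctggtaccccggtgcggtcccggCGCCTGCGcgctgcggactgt

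All 7 promoters, with the unmatched SMARCE1 and BRD9 among them, held more CpG dinucleotides than the median of all promoters. Over 250 bases upstream, the 7 members had a median of 30 CpG dinucleotides and a GC content of 67.6%, against 11 and 58.0% over 27305 promoters of the same length. BCL7B and BCL7C, whose GC contents were 79.6% and 80.8%, lay above 96.4% and 97.5% of all promoters. DPF2 and BRD9 were at 67.6% and 77.2%. SMARCB1, SS18 and SMARCE1, at 58.0%, 56.4% and 54.4%, lay at or below the median of all promoters. The CCAAT box was present in 5 of 7 member promoters and in 33.0% of all, and the GC box in 4 of 7 and in 42.3% of all. SMARCE1 is part of both counts, and BRD9 of the GC box count. The NRF1 motif was present in 1 of 7, with 3 matches in DPF2, and in 9.17% of all. The ETS motif CCGGAAG, in 8.82% of all promoters, and the TATA box TATAAA, in 11.1%, were found in 0 of 7. A match is a run of letters and not a measured site.

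All 10 members were expressed well above the testing minimum of 0.5 FPKM in every library. Their means over the 6 libraries ran from 14.8 FPKM for SS18 to 137 FPKM for SMARCB1, a 9.28-fold range. SMARCB1 ranked first in every library and SS18 last. In falling order the members were SMARCB1, ACTL6A, BCL7C, BCL7B, SMARCE1, DPF2, SMARCC1, SMARCC2, BRD9 and SS18. ACTL6A lay above BCL7C in 4 of 6 libraries and SMARCC2 above BRD9 in 3 of 6, so neither pair had a settled order. DPF2 lay above SMARCC1 in 5 of 6, and every other neighbour pair kept its order in 6 of 6. Set against the motor gene SMARCA4, at 39.7 ± 1.0 FPKM in parental and 40.7 ± 2.05 FPKM in ARID1A ko libraries (SD, n = 3 each), SMARCB1 was 3.64 ± 0.309 times as high per length in parental libraries and SS18 was 0.373 ± 0.0619 times as high (SD, n = 3).

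**Figure D1:**
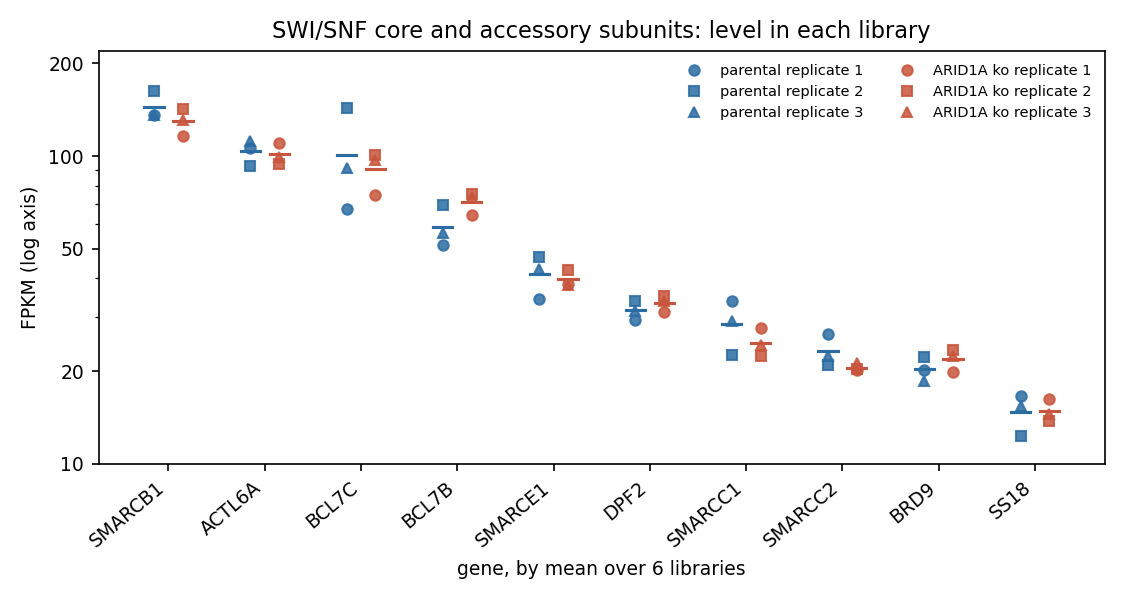
FPKM on a log axis for each of the 10 members, in order of their mean, with parental libraries in blue and ARID1A ko libraries in red; the marker shape gives the replicate number and the bar the group mean. Levels fall from SMARCB1 (116 to 162 FPKM) to SS18 (12.3 to 16.6 FPKM), and the 2 groups overlap for every member.

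The comparison of ARID1A ko with parental libraries asks whether transcripts of the remaining subunits differ where ARID1A is deficient. None of the 10 members passed the limma test (Benjamini-Hochberg adjusted p under 0.05), and 0 had an unadjusted p under 0.05, while 15.9% of the 12826 genes tested were called. The parental and ARID1A ko values overlapped for all 10 members, while they did not overlap for 35.3% of all genes tested. The members' median log2 fold change was -0.04 and their median absolute log2 fold change 0.10, against -0.01 and 0.20 over all genes tested. The median SD within groups on the log2 scale was 0.159 for the members and 0.164 for all genes, so libraries of a group scattered to a like extent in both. As in any bulk sample, fewer cells expressing a gene and less RNA per cell cannot be told apart.

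**Figure D2:**
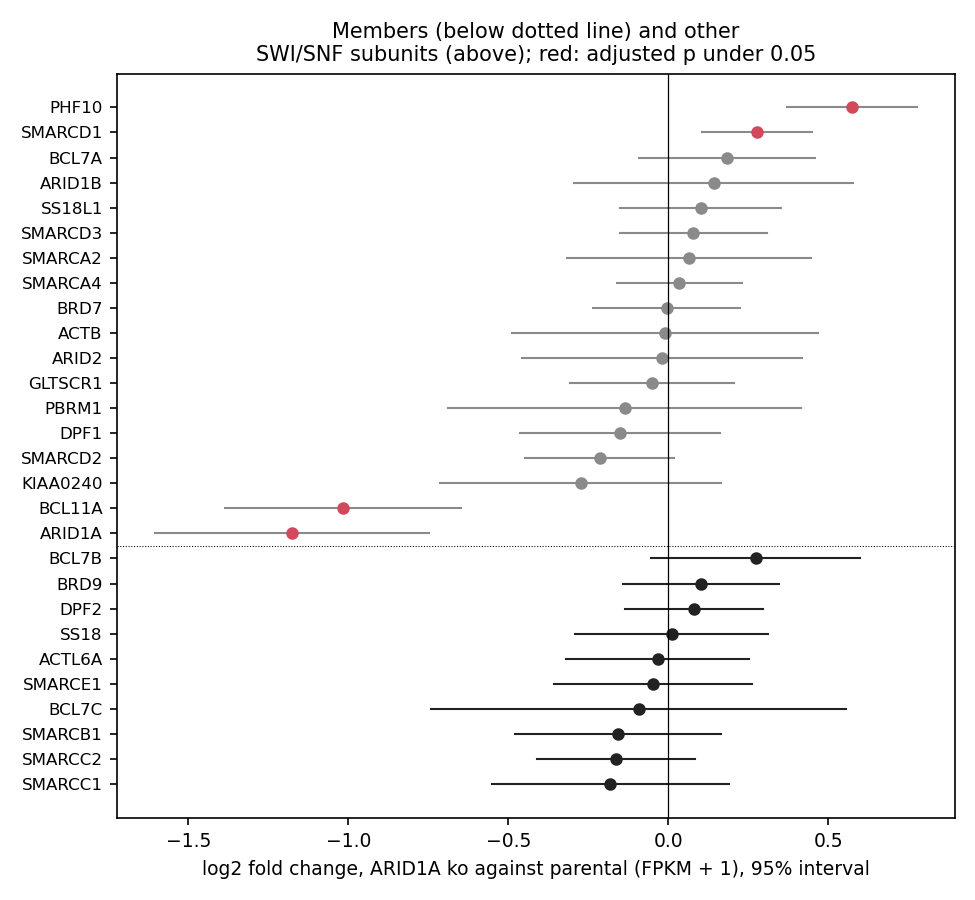
Log2 fold change on the log2(FPKM + 1) scale, ARID1A ko against parental, with 95% limma intervals as lines, for the 10 members (black, below the dotted line) and 18 other tested SWI/SNF subunits (grey, above it); red points have an adjusted p under 0.05. All 10 member intervals cover 0, and the 4 red points belong to PHF10, SMARCD1, BCL11A and ARID1A.

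Among the genes of the base, SMARCC1 and SMARCC2 encode the scaffold proteins that dimerize at the start of assembly. SMARCC1 measured 33.7, 22.6 and 29.1 FPKM in parental samples against 27.5, 22.4 and 24.3 FPKM in ARID1A ko samples. Library 2 was the lowest of each group, and the groups overlapped through it (log2 fold change -0.18, 95% interval -0.55 to 0.19, limma adjusted p = 0.508). SMARCC2 measured 26.5, 20.9 and 22.3 FPKM against 20.1, 20.3 and 21.3 FPKM. Parental library 1 was the highest, and the ARID1A ko libraries lay close together (log2 fold change -0.16, 95% interval -0.41 to 0.08, limma adjusted p = 0.355). Exon overlaps were read from GENCODE 29 on GRCh38, while the values were made on GRCh37 with an annotation not given in the sources used here. In GENCODE 29, SMARCC2 shares 6.01% of its exon bases with exons of MYL6 on the opposite strand, a myosin light chain gene at up to 1412 FPKM. Since the kit is not strand-specific, reads of that overlap could be given to either gene. The ratio of SMARCC1 to SMARCC2 was 1.27, 1.08 and 1.30 in parental and 1.37, 1.11 and 1.14 in ARID1A ko libraries. These ratios overlapped, with geometric means of 1.22 and 1.2 (two-sided exact permutation p = 1, and 1 after adjustment over the 2 ratios tested; 3 against 3 libraries cannot give less than 0.10).

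SMARCB1, whose product contacts the nucleosome surface and whose loss defines rhabdoid tumours, measured 136, 162 and 136 FPKM in parental and 116, 143 and 131 FPKM in ARID1A ko libraries. Its parental mean was 145 ± 15.2 FPKM and its ARID1A ko mean 130 ± 13.4 FPKM (SD, n = 3 each), a gap of about the size of the SD within groups. Its log2 fold change was -0.16 (95% interval -0.48 to 0.17, limma adjusted p = 0.509). Of its annotated exon bases, 17.7% overlap DERL3 on the opposite strand, which reached only 0.0756 FPKM in these libraries. SMARCE1, an HMG-box subunit of the base, measured 34.4, 47.0 and 42.8 FPKM against 38.3, 42.7 and 38.2 FPKM. The ARID1A ko values lay inside the parental range (log2 fold change -0.05, 95% interval -0.36 to 0.26, limma adjusted p = 0.853). SMARCE1 shares 19.8% of its annotated exon bases with AC073508.2 on the same strand, and that gene has no row under this symbol.

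Around the motor, ACTL6A encodes an actin-related protein that also belongs to the INO80, SRCAP and TIP60 complexes. It measured 106, 93.0 and 112 FPKM in parental and 110, 94.3 and 99.6 FPKM in ARID1A ko libraries, and its highest and lowest values both fell in parental libraries. The log2 fold change was -0.03 (95% interval -0.32 to 0.25, limma adjusted p = 0.895). ACTL6A shares 3.37% of its exon bases with MRPL47 on the opposite strand, a mitochondrial ribosome gene at up to 133 FPKM. Its neuronal paralog ACTL6B was listed at 0 in all 6 libraries. An exact 0 can be a failed estimate in these files, since TUBB, a tubulin gene active in nearly all cells, was also listed at 0 throughout.

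BCL7B and BCL7C encode small related proteins that bind the motor module. BCL7B measured 51.3, 69.4 and 56.3 FPKM in parental and 64.3, 75.3 and 73.9 FPKM in ARID1A ko libraries. Its means of 59.0 ± 9.31 and 71.2 ± 5.98 FPKM (SD, n = 3 each) gave the largest absolute log2 fold change among the members, 0.27 (95% interval -0.05 to 0.60, limma adjusted p = 0.242), and the groups overlapped because parental library 2 exceeded ARID1A ko library 1. Without parental library 2, BCL7B had a log2 fold change of 0.39 (limma adjusted p = 0.0234) and was the 1 member of 10 called, beside 31.8% of all genes. Over its alternatives the adjusted p ran from 0.0234 to 0.505.

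BCL7C measured 67.4, 143 and 91.8 FPKM in parental and 74.8, 101 and 96.9 FPKM in ARID1A ko libraries. Parental library 2 was 2.12 times as high as parental library 1, the widest spread among the members, and the ARID1A ko values lay inside it. The log2 fold change was -0.09 with the widest interval of the members, -0.74 to 0.56 (limma adjusted p = 0.865). With these 3 libraries per group, the BCL7C values leave changes inside that interval undecided. Its annotated exons overlap the antisense RNA MIR762HG over 11.3% of their bases, and that gene has no row under this symbol. The ratio of BCL7B to BCL7C was 0.761, 0.485 and 0.613 in parental and 0.860, 0.748 and 0.762 in ARID1A ko libraries. The groups overlapped by parental library 1 against ARID1A ko library 2, and the difference of 0.37 on the log2 scale did not pass (two-sided exact permutation p = 0.20, and 0.40 after adjustment over the 2 ratios). The third paralog, BCL7A, was low, with 1.84% to 4.30% of the summed FPKM of the 3 genes.

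SS18, the subunit fused to SSX proteins in synovial sarcoma, measured 16.6, 12.3 and 15.4 FPKM in parental and 16.2, 13.7 and 14.5 FPKM in ARID1A ko libraries. These were the closest group means of any member, 14.8 ± 2.25 and 14.8 ± 1.26 FPKM (SD, n = 3 each), with a log2 fold change of 0.01 (95% interval -0.29 to 0.31, limma adjusted p = 0.972). SS18 made up 69.0% to 73.9% of the summed FPKM of SS18 and its paralog SS18L1 in the 6 libraries. SS18L1 itself did not pass (log2 fold change 0.10, limma adjusted p = 0.585).

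DPF2 and BRD9 encode histone-reading subunits of different complex forms, DPF2 of canonical BAF and BRD9 of the non-canonical form. DPF2, with paired PHD fingers, measured 29.4, 33.7 and 31.4 FPKM in parental and 31.2, 35.0 and 33.9 FPKM in ARID1A ko libraries. It had the smallest spread within groups of the members, an SD of 0.0897 on the log2 scale, and its log2 fold change was 0.08 (95% interval -0.14 to 0.29, limma adjusted p = 0.619). DPF2 held 89.6% to 92.8% of the summed FPKM of DPF1, DPF2 and DPF3. BRD9, a bromodomain protein, measured 20.2, 22.3 and 18.5 FPKM against 19.9, 23.4 and 22.4 FPKM. Library 2 was the highest of each group, and the groups overlapped (log2 fold change 0.10, 95% interval -0.14 to 0.35, limma adjusted p = 0.569). BRD9 shares 1.90% of its exon bases with TRIP13 on the opposite strand, at up to 43.5 FPKM, and 2.32% with ZDHHC11 on the same strand, at up to 1.81 FPKM.

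The 95% intervals of all 10 members lay between -0.74 and 0.60 on the log2(FPKM + 1) scale. The intervals thus leave out a doubling or halving for each member, and leave smaller changes undecided. Leaving out 1 library at a time, the members whose groups did not overlap numbered between 0 and 3. They were SMARCC1, SMARCC2 and BCL7B without parental library 2, beside 59.3% of all genes. Without ARID1A ko library 1 they were DPF2, BCL7B and BRD9, beside 44.1% of all genes. Leaving out parental library 1 separated SMARCE1 alone (42.6% of all genes), ARID1A ko library 2 SMARCB1 alone (40.2%) and ARID1A ko library 3 SMARCC2 alone (39.0%). Without parental library 3, 0 members separated, beside 37.9% of all genes.

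The members' spread within groups followed the library numbers. SMARCB1, SMARCE1, DPF2, BCL7B, BCL7C and BRD9 were highest in library 2 of both groups, and SMARCC1, ACTL6A and SS18 were lowest in library 2 of both. That makes 9 of 10 members with library 2 at an end of both groups, against 57.7% of all genes tested. From parental library 1 to 2 the first 6 members were 1.10-fold to 2.12-fold higher, and from ARID1A ko library 1 to 2 they were 1.11-fold to 1.35-fold higher. The slope of values on transcript length differed between libraries over all genes. Median annotated transcripts ran from 1548 bases (BCL7B) to 6196 bases (SMARCE1) among the 6. Among the 3 they ran from 1899 bases (ACTL6A) to 6375 bases (SMARCC1). The part of transcript length in the members' pattern was not tested. With each library's length slope as a covariate, 0 of 10 members were called, beside 31.8% of all genes.

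**Figure D3:**
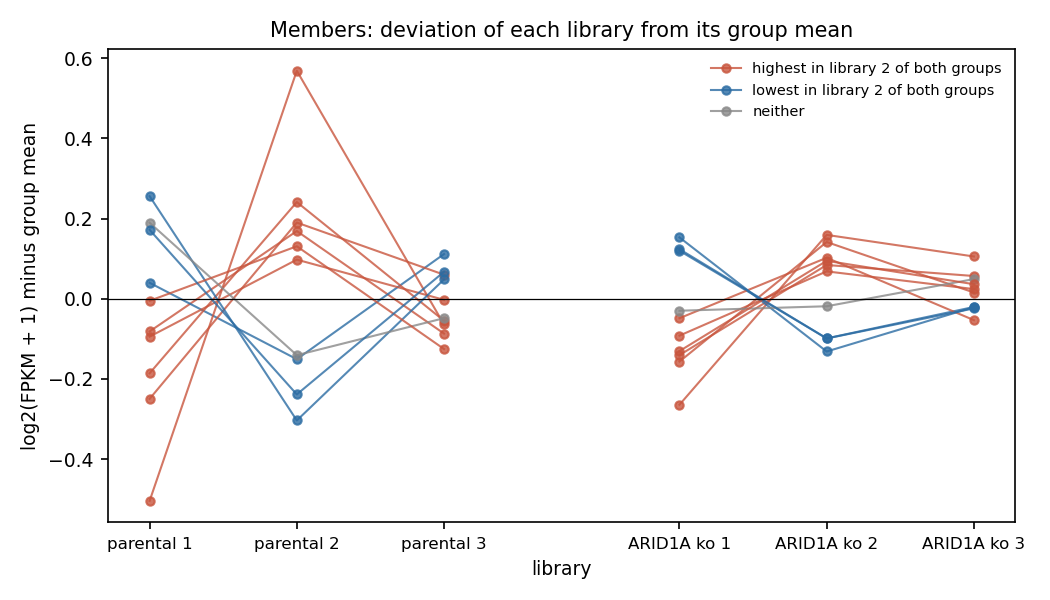
Deviation of log2(FPKM + 1) from the group mean in each library, 1 line per member and group; red members were highest in library 2 of both groups, blue members lowest in both, and grey neither. The 6 red and 3 blue lines run in opposite directions in both groups, and BCL7C has the largest deviation, in parental library 2.

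The members lie on 9 chromosomes, and each was set beside its nearest tested genes, up to 20 on either side in the GRCh38 order of RefSeq. For 9 of the 10 the neighbours' median log2 fold change lay between -0.05 and 0.07. BCL7C on chromosome 16 was the exception: its 40 neighbours had a median of -0.25, while BCL7C itself was at -0.09. Of these neighbours, 0 were called higher and 4 lower, a share of 10% beside 15.9% of all genes tested. BCL7B on chromosome 7 was 0.24 above its neighbours' median of 0.03, the largest gap among the members. ARID1A on chromosome 1 was at -1.18 beside a neighbour median of -0.27. The part of these neighbourhood shifts in single genes was not tested.

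**Figure D4:**
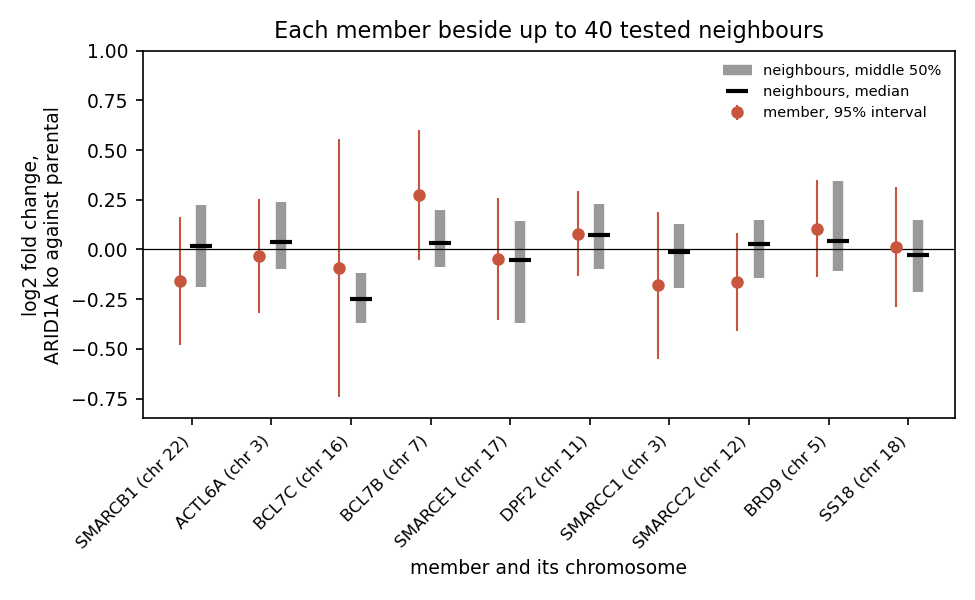
Log2 fold change of each member (red point, 95% limma interval) beside the median (black bar) and the middle 50% (grey bar) of its tested neighbours on the same chromosome, 40 per member and 32 for BRD9. The BCL7C neighbourhood on chromosome 16 has its middle 50% below 0, from -0.37 to -0.12; the other neighbourhoods span 0.

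The genes whose centred profile over the 6 libraries came closest to that of BCL7B, the member with the smallest adjusted p, were NAT9, CYBASC3, TSPAN17, MRPL9 and CCDC9. Their root mean square differences from BCL7B were 0.0265 to 0.0325 on the log2 scale, among the 9849 genes averaging 3 FPKM or more. NAT9 measured 40.5, 53.5 and 45.5 FPKM in parental and 50.2, 59.3 and 60.1 FPKM in ARID1A ko libraries. These 5 genes were chosen by their values, so their likeness to BCL7B is a description.

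Of the other SWI/SNF subunits on the list, 18 of 21 were tested and 4 were called, 2 higher and 2 lower, a share of 22.2% beside 15.9% of all genes. PHF10, a PHD-finger subunit of PBAF, measured 19.8, 22.9 and 22.4 FPKM in parental and 32.9, 33.4 and 31.9 FPKM in ARID1A ko libraries, so the log2 fold change was 0.57 (SE 0.09, with limma adjusted p = 0.00551). Its 26 neighbours on chromosome 6 had a median of 0.32. SMARCD1, a subunit of the base, measured 26.6, 26.9 and 26.8 FPKM against 31.8, 32.8 and 33.4 FPKM (log2 fold change 0.28, SE 0.07, limma adjusted p = 0.0441). Its groups did not overlap, but the SMARCD1 call ended without parental library 1 or 3 or any single ARID1A ko library (highest adjusted p = 0.178). The 40 neighbours of SMARCD1 on chromosome 12 had a median of 0.14, with quartiles at -0.01 and 0.56. The SMARCD1 value of 0.28 lay between these quartiles. Of these neighbours, 10 were called higher and 1 lower, a share of 27.5% beside 15.9% of all genes. The part of this neighbourhood shift in SMARCD1 was not tested.

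BCL11A, a zinc-finger protein found with BAF complexes, fell from 3.66 ± 0.729 to 1.30 ± 0.319 FPKM (SD, n = 3 each; log2 fold change -1.02, limma adjusted p = 0.00606), among neighbours on chromosome 2 with a median of -0.34. ARID1A was the other gene called lower. ARID1B, the paralog that can take the place of ARID1A, measured 7.06, 3.94 and 5.71 FPKM in parental and 6.71, 5.51 and 6.16 FPKM in ARID1A ko libraries and did not pass (log2 fold change 0.14, 95% interval -0.30 to 0.58, limma adjusted p = 0.666). SMARCA4 did not pass either (log2 fold change 0.04, 95% interval -0.16 to 0.23, limma adjusted p = 0.824).

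Subunits of the INO80, SRCAP and TIP60 complexes, which share ACTL6A with SWI/SNF, had 1 of 30 called, MEAF6 (lower). Of the ISWI and CHD remodelers, 2 of 17 tested were called, SMARCA1 (higher) and CHD7 (lower). These shares, 3.33% and 11.8%, stand beside the same 15.9% of all genes. Neither count was stable when 1 library was left out. Of the ISWI and CHD remodelers, 8 of 17 (47.1%, 1 higher and 7 lower) were called without parental library 2, beside 31.8% of all genes, and 0 of 17 without any other single library. For the INO80, SRCAP and TIP60 subunits the count ran from 0 to 2 of 30: leaving out parental library 1 or 2 gave 2, and each of the other 4 omissions gave 0. Differences between the lists were not tested.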

How the data were processed

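The authors deposited 1 table per sample of gene symbols and FPKM values. TopHat2 2.1.1, Cuffnorm 2.2.1.2, Cuffdiff 2.2.1.5 and the build GRCh37 (hg19) are named per the submitters' processing notes; the annotation and the options for scaling were not found in the sources used here. Each table held 23273 rows, of which 28 with a symbol turned into a date were left out. Groups came from the titles. Limma 3.58.1 in R 4.3.3 was fitted on log2(FPKM + 1) with mean-variance trend and robust moderation, group as the only term, on all genes averaging 0.5 FPKM or more, and p-values were adjusted over all of them (Benjamini-Hochberg, threshold 0.05, two-sided). A log2 fold change on this scale understates changes of low genes. The procedure was tested on simulated data with independent noise in each gene and library, which lacked the shared library pattern described above. Ratios of paralogs were tested with an exact permutation test (SciPy 1.17.1). Alternatives varied the pseudocount, filter, scaling, moderation, replicate block, length covariate and libraries. Transcript lengths were medians over GENCODE 29 transcripts with a RefSeq match, found for 96.1% of tested genes; GLTSCR1L was matched as KIAA0240. The members and lists were chosen with earlier results of these data known. Named genes are all members, ARID1A, ARID1B, SMARCA4, paralogs of members, up to 4 other subunits with the smallest adjusted p, and the 5 genes closest to the member with the smallest adjusted p. Genes called in the other lists, single cell type markers and neighbours that share exons were named after their values were seen.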

Additional observations from a re-analysis of the deposited data

How the results depend on the processing

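The alternatives left 146 of 150 pairs of member and setting on the same side of the threshold. The other 4 are BCL7B: 1 member was called with quantile normalization (limma adjusted p = 0.0466), with the replicate block (0.0443), without parental library 2 (0.0234) and without library 2 of both groups (0.0397), the last chosen after seeing the data. All genes called under these settings were 19.5%, 31.6%, 31.8% and 28.1%. The cause was not tested. Leaving out 1 library, members called ranged from 0 to 1 and all genes called from 964 (without ARID1A ko library 3) to 4079 (without parental library 2). All genes called were 4049 with the replicate block, 4083 with the length covariate and 3600 without library 2 of both groups. The main fit did not take the replicate numbers to pair the samples. Deviations from the group means correlated at 0.219 and 0.217 for numbers 1 and 2 and at -0.0131 for number 3. Parental library 2 and ARID1A ko library 1 correlated at -0.267, and library 2 lay at an end of both groups for 57.7% of all genes tested. Whether the numbers pair the samples was not tested. Pseudocount, filter on low values, scaling factors and moderation changed no call among the members. The other SWI/SNF subunits called ranged from 3 to 5. The ISWI and CHD remodelers called ranged from 0 to 8, and the epithelial and ductal markers from 0 to 6 of 6. Depth is unknown, so its part in the width of the intervals was not tested.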

Other observations

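The SMARCD genes, which encode a further base subunit, shifted against each other; they were chosen here after their values were seen, and no test of the shift was made. SMARCD1 held 27.9% ± 1.44 of the summed FPKM of SMARCD1, SMARCD2 and SMARCD3 in parental libraries and 35.2% ± 0.868 in ARID1A ko libraries (SD, n = 3 each). SMARCD2 held 69.5% ± 1.39 and 61.9% ± 0.748. SMARCD2 measured 62.2, 72.4 and 66.3 FPKM in parental and 55.2, 60.2 and 57.2 FPKM in ARID1A ko libraries, without overlap, and did not pass limma (adjusted p = 0.204). ARID1B held 37.4% ± 0.469 of the summed FPKM of ARID1A and ARID1B in parental and 63.7% ± 1.49 in ARID1A ko libraries, while its own level did not pass. The SMARCA4 share of SMARCA2 and SMARCA4 was 84.5% ± 2.85 and 84.2% ± 2.17.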
